A study of Bos taurus with 64 samples.

Results

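The transcripts of heat shock proteins and other chaperones were followed in 2 muscles of Normand cows, the longissimus thoracis (LT) and the semitendinosus (ST), that went to slaughter after added stress or with stress kept limited. Chaperones fold new proteins, hold damaged ones and pass those that cannot be rescued to degradation. HSP70 proteins bind and release clients in a cycle driven by ATP, J-domain (DNAJ) proteins bring the clients and start the ATP step, HSP110 and other exchange factors reset it, and HSP90 and the CCT and HSPD1 chaperonins finish particular clients. In muscle, where contraction strains filament proteins and raises temperature, small heat shock proteins guard the sarcomere, and heat shock factor 1 (HSF1) raises the genes of many cytosolic chaperones when unfolded protein accumulates.

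Members were all non-control probes whose gene name in the array files began with a chaperone symbol (HSP, HSF, DNAJ, CCT2 to CCT8, TCP1, BAG1 to BAG6, STIP1, ST13, STUB1, PFDN, AHSA, CDC37, CRYAB, GRPEL, PDIA, P4HB, CALR or CANX), without HSPG2 and HSPBAP1, which only share the first letters. The rule found 52 genes, each with 1 probe, among 13285 probes and 5449 names. In both muscles 49 of the 52 were bright enough to test. CALR3, DNAJC5B and DNAJC6 were not: they were well above background on 1, 0 and 3 LT arrays and on 2, 0 and 1 ST arrays. By role the array held 3 genes of heat shock factors or their partners (HSF2, HSF4, HSF2BP), 6 of HSP70 and HSP110, 2 of HSP90 and its cochaperones, 4 small heat shock proteins, 4 CCT subunits, 5 mitochondrial and 8 endoplasmic reticulum (ER) chaperones. It held 19 J-domain genes placed in none of the other lists, called here J-domain proteins of cytosol and nucleus, and the exchange factor HSPBP1. HSF1 itself, the BAG family and prefoldin had no member. The name HSPCA is an old one for HSP90AA1, the stress-raised HSP90.

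The study used 32 cows, each sampled in both muscles, which gave 64 one-colour arrays and 16 arrays per muscle and stress group. The 16 stressed cows were isolated during transport by lorry and then spent 30 minutes in a labyrinth on a farm they did not know, and the other 16 were handled with limited stress. All 32 had been fattened on straw and concentrate rich in lipids from linseed and rapeseed, and in each stress group 8 cows also received vitamin E with plant extracts rich in polyphenols (the EP diet) while 8 did not (the control diet). The cows were 4.5 ± 0.1 years old at slaughter, slaughter took place on 1 day a week over 16 weeks, and muscle was frozen within 15 minutes.

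Levels are log2 values relative to the 75th percentile of the array's own non-control spots, so that a level of 0 equals that percentile and 1 unit is a doubling. A difference is the mean of stressed minus limited stress cows over both diets, with its standard error (SE), from limma, and was called at an adjusted p (Benjamini-Hochberg over all probes tested) under 0.1. Probes were well above background on 71.4 to 80.9% of spots per array. In whole muscle, fewer cells of a type and less RNA per cell cannot be told apart. The labelled muscles differed in fibre genes: of the slow fibre markers 4 of 6 were higher in LT, led by TNNT1 (0.91 log2) and ATP2A2 (0.64), while MYH7 (-0.11) and all 4 fast fibre markers (-0.17 to -0.13) were lower in LT, each by less than the median of all probes moved between array scalings. One animal stood apart. With the cows numbered 1 to 32 in the order of their numbers in the labels, cow 29, stressed and on the control diet, correlated with the other arrays of its muscle at a mean r of 0.967 in LT and 0.969 in ST, against at least 0.980 and 0.982 for the other cows, and it had the highest value of 14 of the 49 chaperones in LT (28.6%, against 12.2% of all probes) and 15 in ST (30.6%, against 12.1%). Several of the results that it could move are given with and without it.

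The probes of the genes on which the results turn are shown because they decide which transcript was read. DNAJB1 brings clients to HSP70, and its probe (chr7:9502456-9502515, minus strand, build HGSC Btau_3.1, as the array files place it) was set beside 5 custom probes of a set that has no description. The set was taken as DNAJB1 because its probes 1 and 2 overlap the DNAJB1 probe. Capitals mark the 15 bases that the DNAJB1 probe shares with the end of custom probe 2. Only the named stretch of each is printed: bases 1 to 30 for the DNAJB1 probe and custom probe 1, and bases 31 to 60 for custom probe 2.
DNAJB1 probe: ACTGCCAACACAAGAccaaagtgtgtgact
DNAJB1 custom probe 2: tcattgtaagttgccACTGCCAACACAAGA
DNAJB1 custom probe 1: ccaaagtgtgtgacttgtcaatgtgcagcg
Custom probe 1 shared a run of 45 bases with the DNAJB1 probe. Custom probes 3, 4 and 5 shared at most 7, 4 and 5 bases and were assigned to DNAJB1 only by their place in the set.

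The next probes read the other J-domain and HSP110 genes described at length, DNAJB6 (chr4:122931716-122931775, plus strand, bases 1 to 30 shown), HSPH1 (chr12:29619632-29619691, plus strand, bases 1 to 30 shown) and DNAJA1 (placed over chr8:78915338-78916087, plus strand, a span of 750 bases that is longer than the probe). A second probe, listed as FS_DNAJA1 with no description, is given beside the DNAJA1 probe since both are used below.
DNAJB6 probe: tggtttaatgtgcattgaggatgttttcca
HSPH1 probe: ttgtacagtgcgttgtcatgtggaggtgcg
DNAJA1 probe: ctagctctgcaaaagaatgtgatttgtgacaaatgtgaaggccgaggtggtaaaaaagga
FS_DNAJA1 probe: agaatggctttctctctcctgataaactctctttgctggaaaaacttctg
The longest run that the DNAJA1 and FS_DNAJA1 probes share is 6 bases, so they are separate readings.

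HSF4 (chr18:33821730-33821789, plus strand) and the HSP70 genes HSPA1L (chr23:27330120-27330179, plus strand) and HSPA1A (chr23:27311987-27312046, minus strand) were read by these probes. HSPA1A and HSPA1L are closely related, and their probes are printed for comparison.
HSF4 probe: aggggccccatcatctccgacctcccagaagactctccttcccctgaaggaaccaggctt
HSPA1L probe: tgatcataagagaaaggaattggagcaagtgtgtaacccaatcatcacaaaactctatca
HSPA1A probe: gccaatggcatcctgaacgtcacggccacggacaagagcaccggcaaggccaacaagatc
The HSPA1A and HSPA1L probes shared no run longer than 5 bases. The probes were compared with each other and not with transcripts, so whether either also reads a related HSP70 gene was not tested. The probe named HSPA2 carries a description that names HSPA1A, and its longest run in common with the HSPA1A probe was also 5 bases, so it is called here by its listed name with that doubt. Exons and untranslated parts are not stated for any probe, since no annotation of this build was used here.

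The first question was which chaperones changed with stress in ST. DNAJB1 rose by 0.57 log2 (1.49-fold) and HSF4, a heat shock factor best known from the lens, fell by 0.24. These were 2 of the 49 chaperones tested (4.08%), beside 4.23% of all 10305 probes called in that comparison (1.59% higher and 2.64% lower), so the share of chaperones called was close to the background. At an unadjusted p under 0.05 there were 9 of 49 (18.4%) beside 17.4% of all probes. The median difference of the 49 was -0.03 log2 and that of all probes -0.06, with 22 chaperones above 0 and 27 below.

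DNAJB1 in ST ran from -3.55 over a median of -2.89 to -2.36 in the limited stress cows. In the stressed cows it ran from -2.98 over -2.24 to -1.66. The groups overlapped, but 15 of 16 stressed cows passed the limited stress median and 10 passed the highest limited stress cow. The difference was 0.57 log2 (SE 0.125, limma adjusted p = 0.00725), with an interval of 2 SE on either side from 0.32 to 0.82. Cows of the EP diet gave 0.48 and those of the control diet 0.66. Within the 5 slides it was 0.66, 0.38, 0.71, 0.15 (where only 1 cow was stressed) and 0.69 (where only 1 was not). Without cow 29 it was 0.55 (adjusted p = 0.0121), and the call held with each of the 32 cows left out in turn (adjusted p 0.00243 to 0.0145).

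Of the 5 custom probes of DNAJB1, 4 were called in ST as well. Their differences were 0.55, 0.54, 0.59 and 0.63 log2, with limma adjusted p from 0.0145 to 0.0397, and the fifth gave 0.45 (adjusted p = 0.261). Probes 3 to 5 share almost no sequence with the DNAJB1 probe shown above and have no description, so whether they read the same transcript was not tested.

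HSF4 in ST ran from -3.58 over -3.22 to -2.86 in limited stress and from -3.90 over -3.45 to -3.02 in stress. Only 1 of 16 stressed cows passed the median of limited stress, and 5 lay below the lowest limited stress cow. The difference of -0.24 (SE 0.0770, adjusted p = 0.0974) stood just inside the threshold. Without cow 29, which had the lowest HSF4 value in both muscles, it was -0.21 (adjusted p = 0.151). With each cow left out in turn the call was lost in 20 of 32 cases (adjusted p up to 0.167), and within slides the difference ran from -0.37 to 0.00. Fitted with the cow as a block over both muscles it had an adjusted p of 0.158, and unscaled arrays gave -0.09 (adjusted p = 0.635).

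In LT, 1 of the 49 chaperones was called (2.04%), beside 4.38% of all 10441 probes (2.48% higher and 1.9% lower). It was DNAJB6, a J-domain protein that keeps clients from aggregating and is mutated in a limb-girdle muscular dystrophy, which rose by 0.32 log2 (1.25-fold). At an unadjusted p under 0.05 there were 7 of 49 (14.3%) beside 16.0% of all probes. The median difference of the chaperones was -0.00 log2 and that of all probes -0.05, with 23 chaperones above 0 and 26 below.

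DNAJB6 in LT ran from -3.88 over -3.39 to -3.07 in limited stress and from -3.76 over -3.11 to -2.73 in stress. Of the stressed cows 14 of 16 lay above the limited stress median and 8 above the highest limited stress cow. The difference was 0.32 (SE 0.0957, adjusted p = 0.0702) with an interval from 0.13 to 0.51, and within the 4 slides it was 0.60, 0.23, 0.35 and 0.31. Cows of the EP diet gave 0.39 and those of the control diet 0.24. Leaving out cow 29 left 0.32 (adjusted p = 0.0897), but the call was lost without any 1 of cows 3, 5, 7, 17, 22, 24, 26, 28 or 32, with adjusted p over all 32 cases from 0.0209 to 0.124. Scaled to the control features the difference was 0.14 (adjusted p = 0.639).

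The same genes in the other muscle are given side by side. DNAJB6 in ST ran from -3.87 over -3.32 to -2.81 in limited stress and from -3.57 over -3.08 to -2.74 in stress, a difference of 0.20 (SE 0.0949, adjusted p = 0.285). HSF4 in LT differed by -0.13 (SE 0.101, adjusted p = 0.564), with 8 of 16 stressed cows on either side of the limited stress median. DNAJB1 in LT ran from -3.14 over -2.56 to -2.05 in limited stress and from -2.81 over -2.53 to -0.78 in stress. The LT medians of DNAJB1 were thus nearly the same, while 5 stressed cows lay above every limited stress cow, and the difference of 0.27 (SE 0.176, adjusted p = 0.467) was not called. With the cow and slide together as blocks it was 0.39 and called (adjusted p = 0.0856). Within the 4 slides the LT difference was 0.53, 0.91, 0.02 and 0.16, within the 2 scan days 0.62 and 0.08, and by diet 0.49 (EP) and 0.06 (control). The 5 custom probes of DNAJB1 gave 0.23 to 0.44 in LT, none called. The stress difference in LT minus that in ST was tested for each gene: for DNAJB1 it was -0.30 (SE 0.219, p = 0.174 from limma before adjustment), and none of the 49 chaperones nor any of the 10254 probes was called (0% of probes). At an unadjusted p under 0.05 the only chaperone was DNAJC18, beside 278 probes (2.71%).

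**Figure D1:**
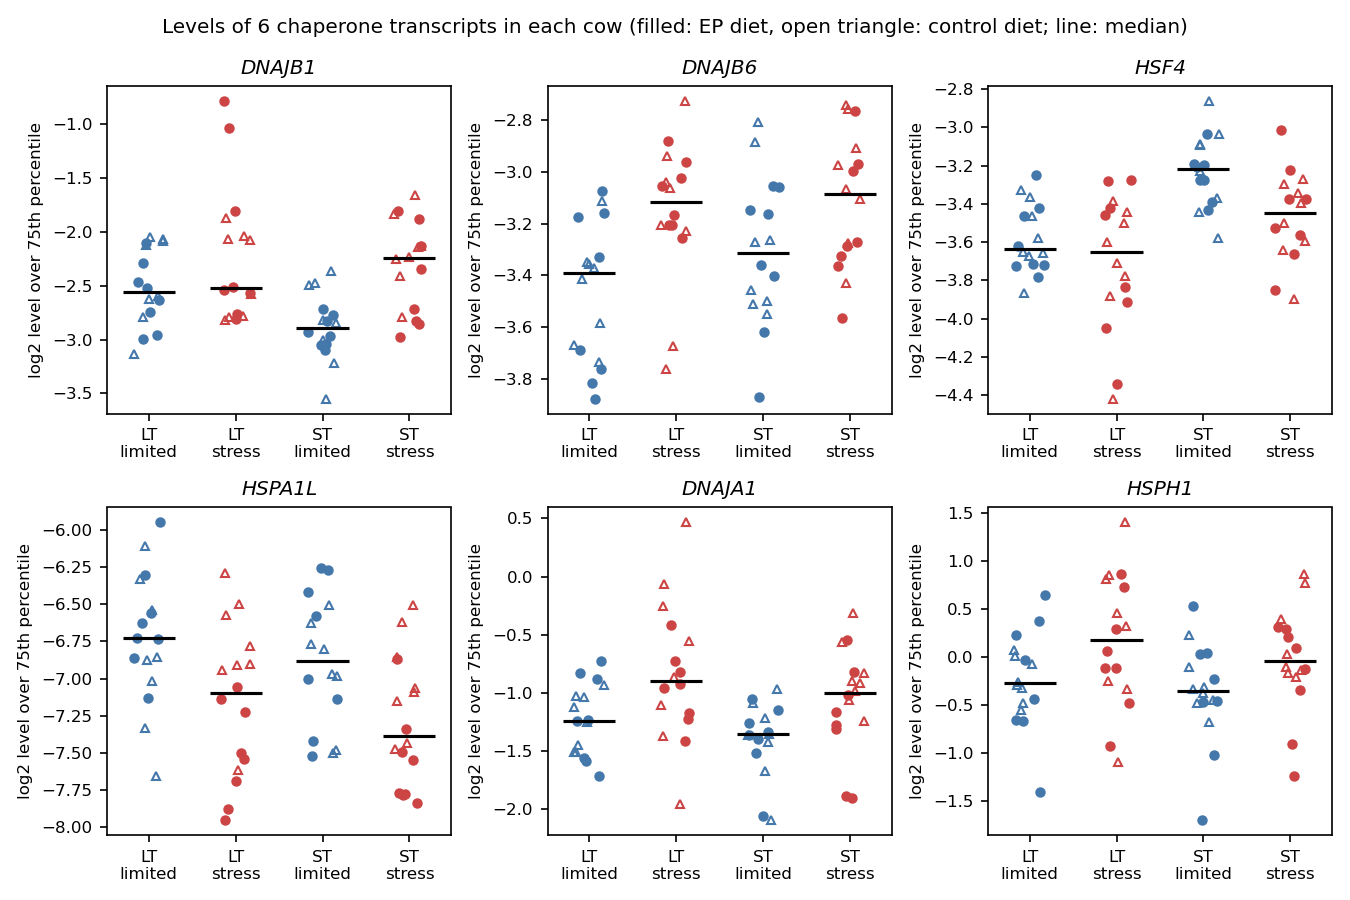
Level of 6 chaperone genes in each cow (y axis, log2 relative to the 75th percentile of the array), by muscle and stress group. Each point is 1 cow, filled circles are the EP diet, open triangles the control diet and the line is the group median. In ST, 15 of 16 stressed cows exceed the limited stress median of DNAJB1 and 1 of 16 that of HSF4, and in LT 14 of 16 exceed that of DNAJB6.

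Among the HSP70 and HSP110 genes none was called with stress in either muscle. HSPA1A, the heat-raised HSP70, ran from 2.97 over 3.34 to 3.75 in limited stress and from 3.103 over 3.54 to 4.14 in stress in LT. Its difference was 0.21 in LT (SE 0.103, adjusted p = 0.300) and 0.16 in ST (SE 0.0848, adjusted p = 0.344). HSPA8, the HSP70 present in all cells, differed by 0.10 and 0.08.

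HSPH1, the HSP110 exchange factor of HSP70, had among the larger differences and the larger spreads. In LT it ran from -1.41 over -0.28 to 0.65 in limited stress and from -1.101 over 0.18 to 1.41 in stress. In ST it ran from -1.70 over -0.35 to 0.53 and from -1.25 over -0.04 to 0.86. Values over the median of limited stress were found in 12 of 16 stressed cows in LT and 14 of 16 in ST, yet the differences of 0.39 (SE 0.209, adjusted p = 0.353) and 0.34 (SE 0.178, adjusted p = 0.320) were not called. Within the ST slides HSPH1 differed by -0.43, -0.18, 0.70, 0.14 and 1.84, the last against 1 limited stress cow, so its sign was not the same on all slides. Without that slide the ST difference was 0.23 (adjusted p = 0.549), and within the LT slides it ran from 0.34 to 0.60. The spread among cows of one group (residual SD 0.61 in LT) was larger than for 89.4% of probes in LT and 82.3% in ST (SD 0.52). Its 5 custom probes gave 0.40 to 0.44 in LT and 0.36 to 0.41 in ST, none called.

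HSPA1L, a HSP70 best known from testis, was dim and pointed down in both muscles. In LT it ran from -7.66 over -6.73 to -5.95 in limited stress and from -7.95 over -7.10 to -6.29 in stress. In ST the values were -7.52, -6.88 and -6.26 against -7.84, -7.39 and -6.50. The differences were -0.43 in LT (SE 0.140, adjusted p = 0.100, just above the threshold, and 0.0680 with the cow as a block) and -0.40 in ST (SE 0.136, adjusted p = 0.120). By diet the difference in LT was -0.89 in cows of the EP diet and 0.03 in those of the control diet, and in ST it was -0.73 and -0.07. The stress by diet interaction for HSPA1L had p = 0.00278 in LT and p = 0.0224 in ST before adjustment, and 0.9999 and 0.969 after it (limma).

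DNAJA1, a second J-domain partner of HSP70, was read by 2 probes. On the DNAJA1 probe LT ran from -1.72 over -1.24 to -0.72 in limited stress and from -1.96 over -0.89 to 0.47 in stress, and ST from -2.09 over -1.36 to -0.97 and from -1.91 over -1.002 to -0.31. Of the stressed cows 13 of 16 in LT and 14 of 16 in ST lay above the limited stress median, and the differences of 0.39 (SE 0.162, adjusted p = 0.220) and 0.35 (SE 0.126, adjusted p = 0.146) were not called. The FS_DNAJA1 probe gave 0.40 in LT (adjusted p = 0.182) and 0.39 in ST (SE 0.119, adjusted p = 0.0821), which was called. Within the ST slides the DNAJA1 difference was -0.19, -0.34, 0.75, 0.30 and 1.097, so its sign was not the same on all slides, while in LT it ran from 0.24 to 0.44. The part of slide in this was not tested beyond these values and the fits with slide as a block.

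The other roles gave smaller values. HSPCA differed by 0.01 in LT (SE 0.0643) and -0.04 in ST, and STIP1, the adaptor between HSP70 and HSP90, by -0.06 and 0.01. The 4 small heat shock proteins lay between -0.11 and 0.11 in LT and between -0.14 and 0.10 in ST, with CRYAB, which holds desmin and other filament proteins, at 0.11 and 0.10 (0.06 in LT without cow 29). The 4 CCT subunits, which fold actin and tubulin, lay between -0.04 and 0.08 in LT and between -0.16 and 0.06 in ST, and the highest in LT, CCT2, was at 0.03 without cow 29. The 5 mitochondrial chaperones lay between -0.10 and 0.09 and between -0.05 and 0.11, and HSPD1 gave 0.09 and 0.11. HSPA5, the HSP70 of the ER, differed by 0.07 and 0.12 (0.05 and 0.06 without cow 29), and the 7 ER chaperones tested ranged from -0.08 to 0.21 in LT and from -0.13 to 0.12 in ST. HSF2 gave 0.14 in LT and 0.11 in ST with cow 29, and 0.04 in both muscles without it.

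The errors of the fit give a range for each change at the main scaling, and they do not carry the choice of scaling. The interval of 2 SE on either side stayed within 1 log2 unit of no change for all 49 chaperones in both muscles, and within 0.5 for 42 in LT and 43 in ST, at a median SE of 0.080 and 0.077. For HSPCA in LT it ran from -0.11 to 0.14, while control feature scaling gave -0.16, outside that interval.

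**Figure D2:**
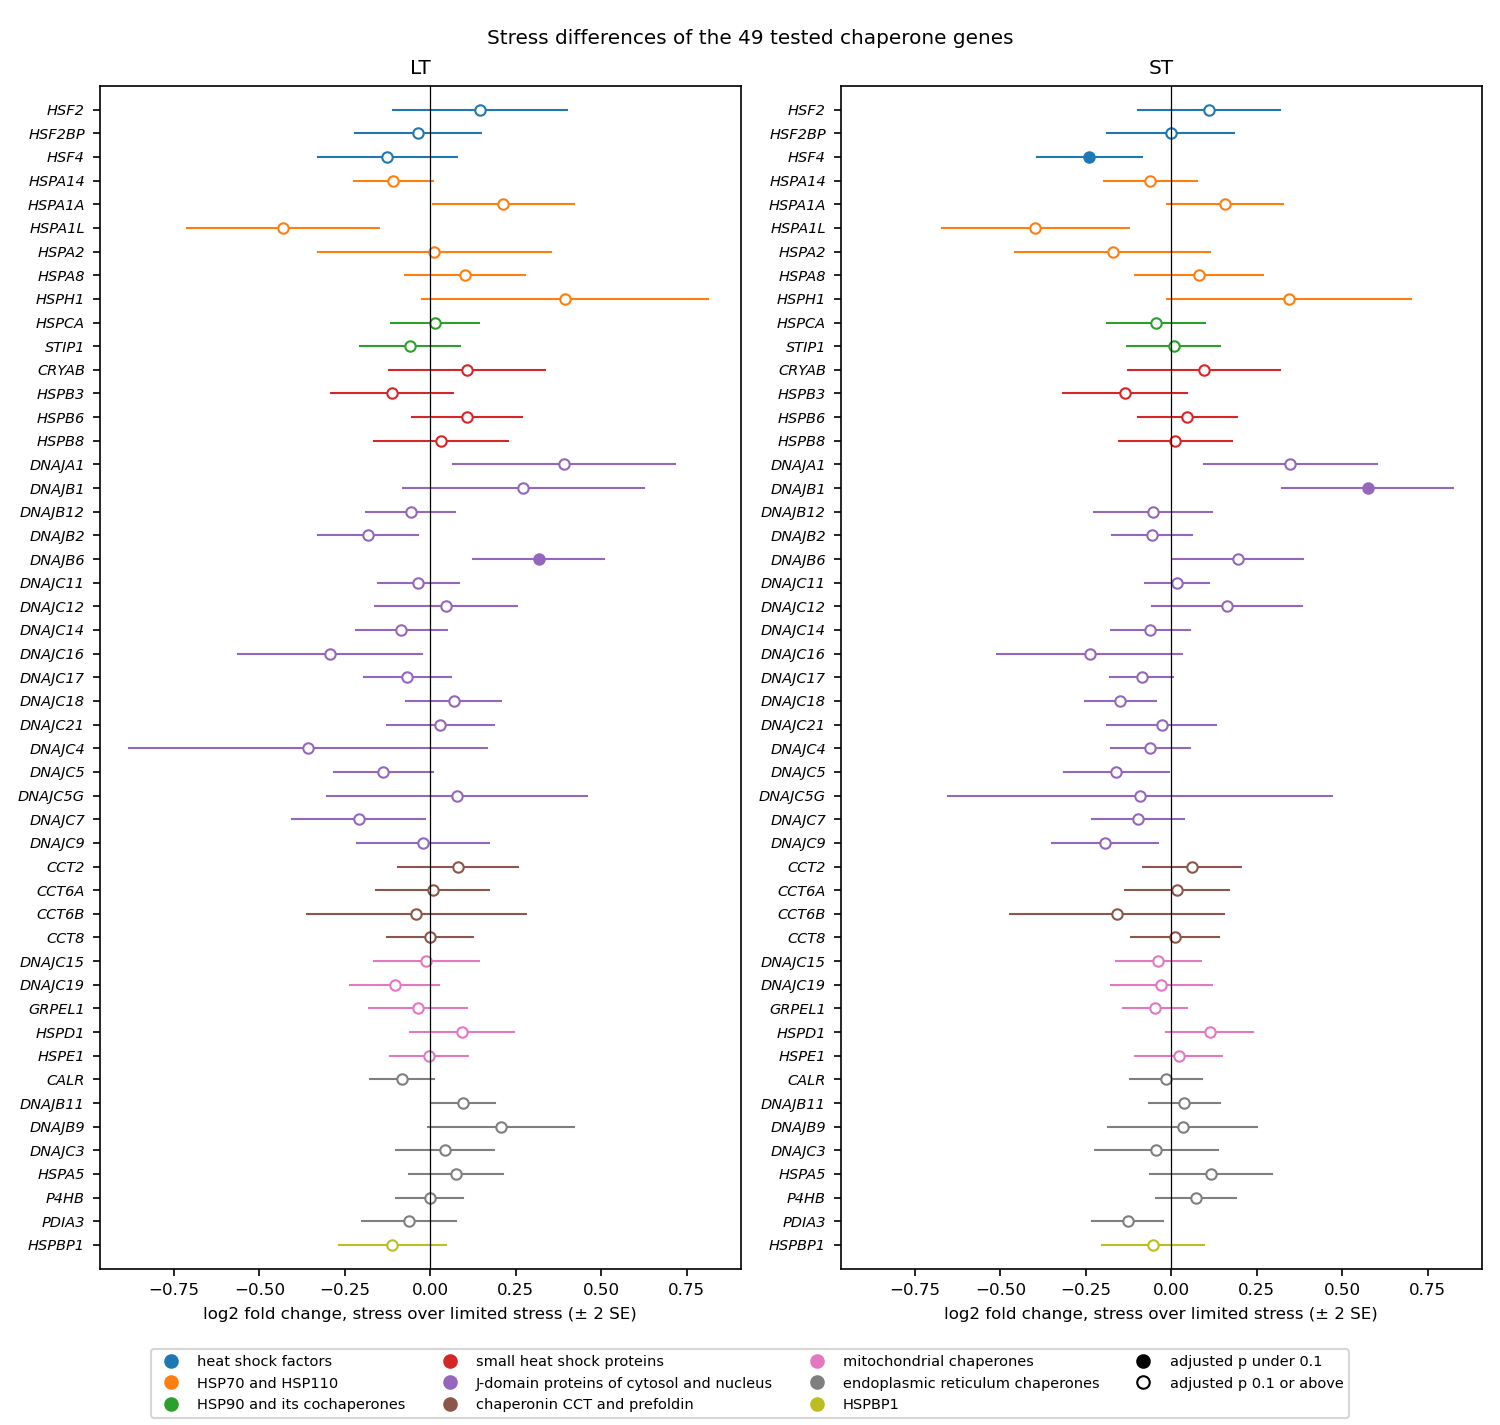
Stressed minus limited stress difference (log2, x axis) of the 49 chaperone genes tested, grouped by role, in LT and ST. Points are limma estimates, bars are 2 SE on either side, and filled points are called at an adjusted p under 0.1. DNAJB6 in LT and DNAJB1 and HSF4 in ST are the called genes, and all intervals lie within 1 log2 unit of 0.

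Among the members were 11 known targets of HSF1 (HSPH1, HSPCA, STIP1, DNAJA1, DNAJB1, HSPA1A, HSPA8, HSPD1, HSPE1, CRYAB and HSPB8). With stress none was called in LT and 1, DNAJB1, in ST. Their differences were above 0 for 9 of 11 in LT and 10 of 11 in ST, with medians of 0.10 in both, beside -0.05 and -0.06 for all probes. The count above 0 in LT moved with the scaling of the arrays: scaled to the control features it was 4 of 11, where the median of all probes was itself -0.23. Counted against the median of all probes, 10 of the 11 lay above it in LT and 11 in ST. Scaling by 1 value per array, or none, shifts all probes alike and cannot move these counts. Normexp with quantile normalisation can, and it gave 10 in both muscles. After removal of the group means the 11 genes varied together from cow to cow. The median r of their pairs was 0.55 in LT and 0.47 in ST. The counts are therefore not 11 separate readings of stress, and no test of them was made. Of all 49 chaperones 32 in LT and 36 in ST lay above the median of all probes, and 30 and 32 with that normalisation.

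Probes outside the name rule read further chaperones. HSPB1 was represented by a probe listed as FS_HSPB1, which gave 0.10 in LT and 0.16 in ST (adjusted p = 0.825 and 0.562). The study lists HSPB1 and DNAJB4, both also HSF1 targets, among its stress genes of LT. Its promoter results for LT name HSPBAP1, which the rule here leaves out, and do not name HSPB1. As its list of stress genes holds HSPB1 and not HSPBAP1, which gene was meant is not clear. DNAJB4 had no member probe here. A probe described as HSPA4 gave 0.12 and 0.04, and one described as DNAJC13 gave -0.10 and -0.06, none called. Of 25 other cytosolic and mitochondrial proteostasis genes on a list kept apart from the members, 3 were on the array (LONP1, SERPINH1, TRAP1), and of 21 genes of the unfolded protein response 2 (EDEM1, EIF2AK3). None of these 5 was called with stress in either muscle. EDEM1, which directs misfolded ER proteins to degradation, gave 0.30 in LT (adjusted p = 0.245) and -0.17 in ST (adjusted p = 0.634).

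Custom probes in sets of 5, which have no description, were assigned as a whole set to a chaperone where 1 of their probes and the chaperone's own probe had a common run of 25 bases or more, which gave 28 sets for 26 genes and 135 tested probes. In LT none of the 135 was called with stress (limma, 15 at an unadjusted p under 0.05), beside 4.38% of all probes. In ST 8 were (5.93%, beside 4.23% of all probes): 4 of DNAJB1, higher, and 1 of DNAJC14, 1 of DNAJC17 and 2 of PDIA3, lower. The members' own probes of DNAJC14, DNAJC17 and PDIA3, a disulfide isomerase of the ER, gave -0.06, -0.09 and -0.13 in ST and were not called (adjusted p = 0.613, 0.330 and 0.191).

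**Figure D3:**
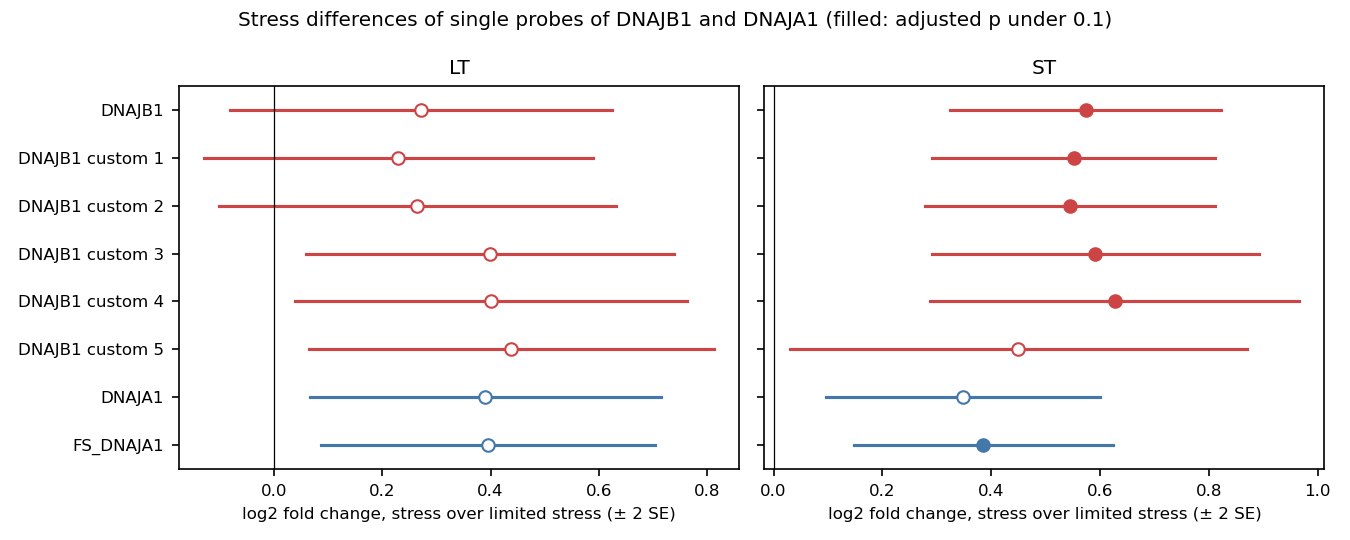
Stressed minus limited stress difference (log2, with 2 SE on either side) for the DNAJB1 probe and its 5 custom probes and for the DNAJA1 and FS_DNAJA1 probes, in LT and ST. In ST the DNAJB1 probe gave 0.57 and its custom probes 0.45 to 0.63, and in LT 0.27 and 0.23 to 0.44.

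With diet no chaperone was called by limma, nor for the stress by diet interaction: 0 of 49 in each muscle beside 0% of all probes. At an unadjusted p under 0.05 the diet comparison held DNAJC12 in LT (0.27 log2) among 407 probes, and in ST HSPB6 (0.22, p = 0.00451 from limma) and DNAJC12 (0.24) among 531. DNAJC12 is a cochaperone of the aromatic amino acid hydroxylases, and HSPB6 is a small heat shock protein abundant in muscle. For the interaction HSPA1L stood alone in LT among 276 probes, and HSPA1L, HSF2 (-0.48) and GRPEL1 (-0.19) in ST among 491.

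Between the muscles the differences were more numerous, as they were for the array as a whole. With stress groups and diets averaged, 26 of 49 chaperones differed between LT and ST (53.1%), beside 58.2% of all 10254 probes, 13 higher in LT (26.6% of all probes were) and 13 lower (31.6%). Each muscle was hybridised and scanned on its own slides and days, 4 slides on 2 days for LT and 5 slides on 3 days for ST, so the muscle and the slide or scan day cannot be told apart by a fixed block. With slide as a random block 17 chaperones were called, and with scan day 15. With the cow as a block, which pairs the muscles of an animal, 33 were. The split depended on scaling: scaled to the control features 19 were higher and 4 lower, and unscaled 27 and 5, as the median of all probes moved from -0.02 to 0.17 and 0.11.

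ER chaperones were lower in LT, with 6 of the 7 tested called lower and none higher, though 4 of 7 and not 6 lay below 0 when arrays were scaled to the control features. Of all probes 31.6% were called lower. DNAJC3, an ER J-domain protein that serves HSPA5, was lower in all 32 cows, by 0.55 log2 on average (-0.55, SE 0.0573, adjusted p = 6.1e-12), with LT limited stress cows from -1.44 over -1.04 to -0.82 and ST limited stress cows from -0.78 over -0.44 to -0.18. DNAJB9, another ER J-domain protein, was lower in 31 of 32 cows (-0.56, SE 0.0766), and HSPA5 in 27 of 32 (-0.25, SE 0.0559, adjusted p = 1.4e-04). PDIA3 was at -0.21, P4HB, a disulfide isomerase and subunit of prolyl hydroxylase, at -0.15 and CALR, a calcium-binding lectin chaperone, at -0.09. P4HB and CALR turned to the other side of 0 under control feature scaling, and CALR also without scaling. HSPA5 was no longer called at -0.06 (adjusted p = 0.743) with control feature scaling or at -0.12 (adjusted p = 0.146) without scaling. Relative to the median of all probes, 1 of the 7 lay above it. With normexp and quantile normalisation, the only scaling tried that can move this count, it was again 1. DNAJB11 was not called (0.00, SE 0.0333, adjusted p = 0.934).

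Custom probes read several of the ER differences again. All 5 of DNAJC3 were called lower (-0.51 to -0.42), as were all 5 of PDIA3 (-0.22 to -0.12). For P4HB 2 of 5 were called and the mean was -0.05, against -0.15 on the member's probe. For CALR the custom probes averaged 0.03 and ran from -0.08 to 0.10, so the small difference on the member's probe was not seen on its custom set.

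DNAJB12, a J-domain protein anchored in the ER membrane that falls in the remaining J-domain list, had the largest difference of the 49. LT ran from 0.61 over 0.78 to 1.01 in limited stress cows and ST from 1.09 over 1.42 to 1.71. These limited stress ranges did not overlap, but with the stressed cows LT reached 1.22 and ST fell to 0.96, so the muscles overlapped. The share of all probes without overlap was not computed. In 31 of 32 cows the level was lower in LT, and the difference was -0.60 (SE 0.0538, limma adjusted p = 4.3e-14). All 5 custom probes gave -0.59 to -0.44 and were called. DNAJC9, a nuclear J-domain protein that handles histones, was lower in 31 of 32 cows (-0.48, SE 0.0617). Of the 17 J-domain genes tested in this list 4 were higher in LT and 2 lower, beside 26.6% and 31.6% of all probes.

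Of the 4 small heat shock proteins 2 were called higher in LT and 1 lower, beside 26.6% and 31.6% of all probes. CRYAB was higher in LT in 25 of 32 cows (0.30, SE 0.0803, adjusted p = 0.00113), with LT limited stress cows from 3.28 over 3.67 to 4.28 and ST from 2.77 over 3.43 to 3.93, so the ranges overlapped. Its 5 custom probes gave 0.40 to 0.54, all called, and the FS_CRYAB probe 0.61 (adjusted p = 3.3e-06). HSPB6 was higher in 30 of 32 cows (0.27, SE 0.0536), with all 5 custom probes at 0.26 to 0.45. HSPB8, which works with BAG3 in clearing damaged filament proteins, was at -0.17 (adjusted p = 0.0226), but its custom probes averaged -0.01 and 1 of 5 was called.

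Of the 11 HSF1 targets 7 were called higher in LT and 2, HSPCA (-0.15) and HSPB8, lower, beside 26.6% and 31.6% of all probes. With control feature scaling all 11 lay above 0. Relative to the median of all probes 9 of 11 lay above it. With normexp and quantile normalisation, the only scaling tried that can move this count, it was again 9. As the 11 genes varied together from cow to cow within each muscle, they are not 11 separate readings here either. HSPA1A was higher by 0.21 (26 of 32 cows), HSPA8 by 0.16, HSPD1 by 0.13, STIP1 by 0.12 and HSPE1, the partner ring of HSPD1, by 0.11. DNAJB1 was higher by 0.22 (SE 0.110, adjusted p = 0.0810), a call lost without any 1 of cows 2, 6, 7, 8, 10, 11, 12, 16 or 32, and with slide or scan day as a random block (adjusted p = 0.195 and 0.256). Its custom probes fell in 2 groups in this comparison: the pair that overlaps the DNAJB1 probe gave 0.25 and 0.23, and the other 3 gave 0.72, 0.69 and 0.73, all called. HSPH1 differed by 0.15 (adjusted p = 0.388), with 3 of 5 custom probes called at 0.19 to 0.43 over the set.

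Among the remaining roles CCT6A (0.29, 29 of 32 cows) and CCT8 (0.16) of the chaperonin were higher in LT, and CCT2 and CCT6B were not called. Of the heat shock factor group HSF4 (-0.29, 27 of 32 cows) and HSF2BP, a partner of HSF2 (-0.22, 23 of 32 cows), were lower and HSF2 was not called (0.06). With control feature scaling neither was called (HSF4 -0.10, adjusted p = 0.540, and HSF2BP -0.03, adjusted p = 0.878), and without scaling HSF2BP was not (-0.09, adjusted p = 0.305). HSPA2 was lower by 0.25 (adjusted p = 0.0561, 24 of 32 cows), but its call was lost under 6 of 10 alternatives. Among them were control feature scaling (-0.06, adjusted p = 0.804), no scaling (-0.12), normexp with quantile normalisation (-0.17) and slide or scan day as a random block (adjusted p = 0.207 and 0.258). Outside the members LONP1, SERPINH1, the collagen chaperone (0.42, adjusted p = 1.2e-04), and TRAP1 were all 3 higher in LT. The slow fibre markers had a mean level per cow from 3.96 over 4.47 to 4.96 in LT of limited stress cows. In ST of these cows it ran from 3.36 over 3.93 to 4.83, so the ranges overlapped. Of markers of other cells PECAM1 of endothelium, the 1 tested of its list, was higher in LT (0.34), and of 4 fibroblast markers COL1A1 was lower (-0.48) and the list's median was -0.25. The 1 nerve and Schwann cell marker tested was higher in LT (0.45). Neither of 2 fat markers was called, and no blood marker was bright enough to test in both muscles. The part of fibre type and of these cells in the chaperone differences was not tested.

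**Figure D4:**
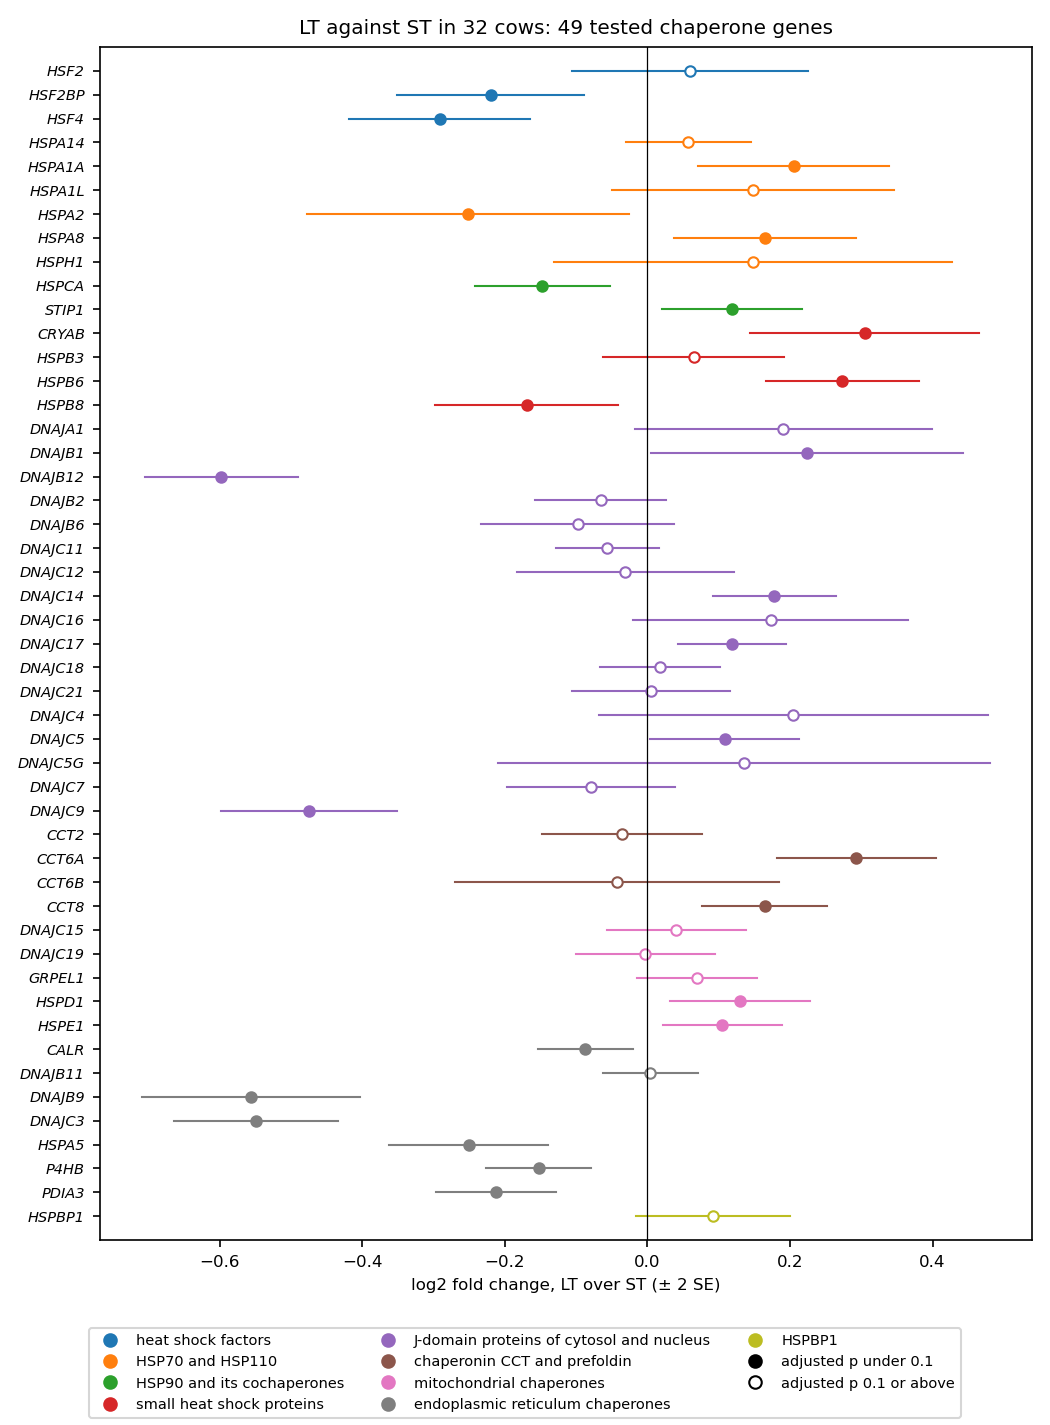
LT minus ST difference (log2, x axis) of the 49 chaperone genes tested, grouped by role. Points are limma estimates over 64 arrays, bars are 2 SE on either side, and filled points are called at an adjusted p under 0.1. The 6 called ER chaperones lie below 0, DNAJB12 is lowest at -0.60 and CRYAB highest at 0.30.

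Since each cow gave both muscles, a gene's deviation from its group mean in LT was set against that in ST for 29 genes described here. After adjustment over the 29 permutation tests (100000 resamples), 25 correlated between the muscles at p under 0.05. The share of all probes that would pass was not computed, so this count has no background beside it. The closest was HSPA2 (r = 0.83, rho = 0.74, both at the smallest p these permutations give, 1e-05, and r = 0.79 without the 2 cows farthest from the LT median). HSPH1 gave r = 0.62 and rho = 0.61 (adjusted permutation p = 0.00174, 0.50 without those 2 cows), DNAJB1 0.60 and 0.59 (adjusted permutation p = 0.00261, 0.44 without) and HSPA1A 0.57 and 0.53 (0.49 without).
HSPCA (0.28), PDIA3 (0.04), HSPE1 (-0.08) and HSPD1 (-0.09) did not pass. With slide means removed 26 of 29 passed. Without cow 29 the number was 15, and with control feature scaling it was 2 (HSPA2 and HSPH1). The median r was 0.49 over the 49 chaperones and 0.41 over all 10254 probes, and without cow 29 it was 0.39 and 0.37.

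Within a muscle the HSF1 targets varied together from cow to cow after removal of the group means. Over the 55 pairs of the 11 genes the median r was 0.55 in LT and 0.47 in ST, and 41 and 40 pairs were positive with an adjusted permutation p under 0.05 over the 110 relations. The share of other pairs that would pass was not computed, so these counts have no background beside them. With the 38 other chaperones the 11 genes had a median r of 0.11 in LT and 0.13 in ST, and with all probes -0.02 in both. Among the 38 themselves the median r was 0.04 in both muscles. Without cow 29 the medians of the pairs were 0.52 and 0.46.

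The closest pair in LT was HSPCA with HSPH1 (r = 0.90, rho = 0.83, adjusted permutation p = 7.3e-05, r = 0.86 without the 2 farthest cows and 0.90 with slide means removed), and the same pair gave r = 0.44 in ST. DNAJA1 with HSPH1 gave 0.86 in LT and 0.69 in ST. In ST the closest was DNAJA1 with HSPA8 (r = 0.76, rho = 0.68, adjusted permutation p = 7.3e-05). The mitochondrial ring partners HSPD1 and HSPE1 gave 0.71 in LT and 0.75 in ST. DNAJB1 had lower values with several of these genes: with HSPA8 it gave -0.05 in LT and 0.13 in ST, with HSPA1A 0.24 and 0.17, and with HSPH1 0.50 and 0.37.

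**Figure D5:**
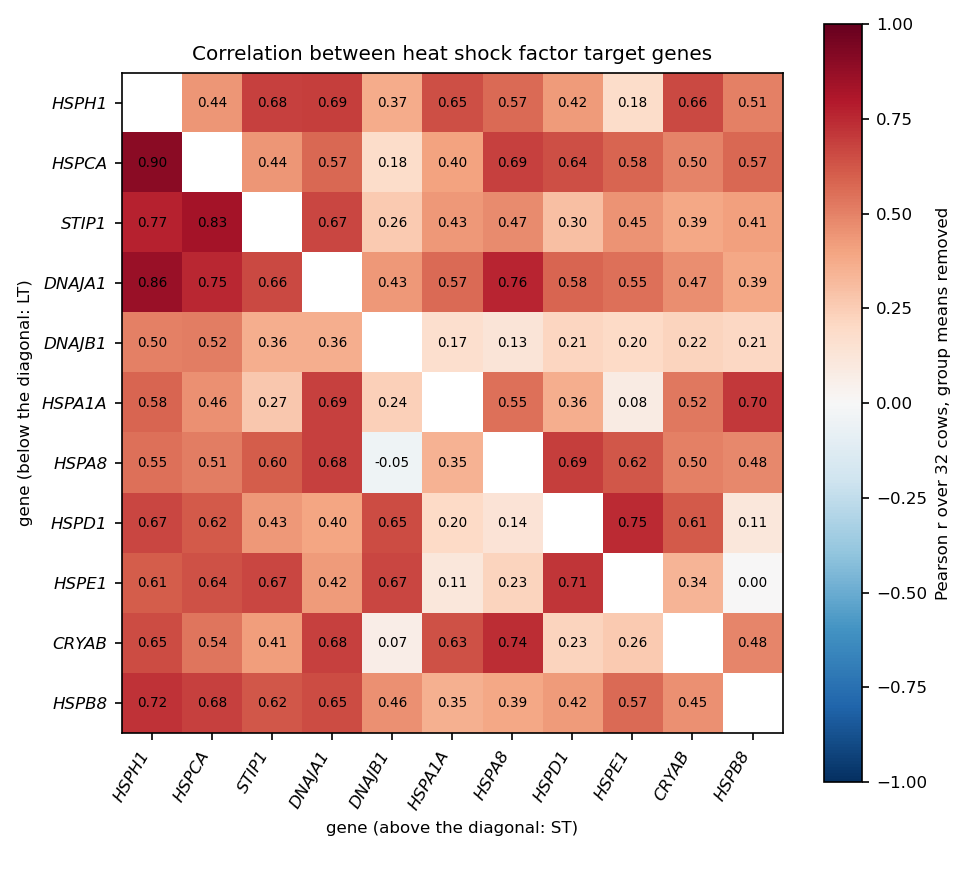
Pearson r over cows for each pair of the 11 HSF1 target genes, after removal of the stress and diet group means, with LT below the diagonal and ST above it. HSPCA with HSPH1 in LT (0.90) is the highest pair, and DNAJB1 with HSPA8 in LT (-0.05) the lowest.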

How the data were processed

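RNA of LT and ST from 32 cows was hybridised to Agilent one-colour (Cy3) arrays with 13950 features. The deposited files hold the authors' scanner output from Feature Extraction, whose processed intensity is background-subtracted and detrended and is not normalised between arrays. The series' value table held the same intensity (largest difference 0 over 64 columns, unscaled and not log-transformed, column medians 221 to 413) and was not used further. limma was the only tool listed in the processing notes. The intensity of each deposited file was taken as log2 after division by its array's 75th percentile (2470 to 4202 intensity units) of the non-control spots. The study's methods scale to control probes. On these files the 536 control features had a median intensity of only 1.73 to 6.36, so that scaling was kept as an alternative. Outlier-flagged spots were left out (0 to 130 an array), spots of a probe were averaged, and a probe was tested where well above background on at least 11 of 32 arrays. Where a member lacked a value on an array (GRPEL1 and HSPB8, 31 cows in within-cow values), the fit dropped that array for the gene.

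limma 3.58.1 (R 4.3.3, statmod 1.5.0) was fitted to group means of stress and diet, per muscle for stress and diet and over 64 arrays for muscle, with Benjamini-Hochberg adjustment over all probes. The slaughter period, a factor of the study's model, is not in the labels and was not fitted. Alternatives were other scalings, background correction, filters, thresholds, slide, scan day and cow blocks, and each cow left out. The script for the fits was tested on simulated data. Cow numbers pair LT and ST, since both came from the same animal (block correlation 0.407). The members, role lists and tests were chosen with earlier results of these data known. Genes described were those called for stress, the 12 largest called differences between muscles, the largest stress difference of each role, and a preset list of well-known chaperones. Others are named where a count of few genes is given. RefSeq accessions matched a symbol for 39 of 52 members. The number of arrays limits the precision, and no count of molecules exists.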

Additional observations from a re-analysis of the deposited data

How the results depend on the processing

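The tally of single genes covers those chosen for description, between muscles only the 12 largest called differences. Of the values recomputed under an alternative, 493 kept direction and side of the threshold, 27 fell short of it and 4 newly passed it. Another 19 changed sign, all 19 in stress differences that were called neither before nor after. With control feature scaling these were CCT2 (-0.10), CRYAB (-0.071), HSF2 (-0.033), HSPA5 (-0.10), HSPA8 (-0.076), HSPCA (-0.16) and HSPD1 (-0.084) in LT and CALR (0.081) and HSPCA (0.051) in ST. Without scaling they were HSPE1 (0.031) in LT and CALR (0.13), HSPB3 (0.013), HSPCA (0.104) and PDIA3 (0.021) in ST. HSPE1 in LT was also at 0.0188 with normexp, 0.0155 with slide, 0.0168 with scan day and 0.0142 with the cow block and slide, and STIP1 in ST at -0.021 without the slide of 1 limited stress cow. Outside this tally, P4HB, CALR, HSPCA and HSPB8, called lower in LT than in ST, lay above 0 with control feature scaling. With single cows left out the sign also changed for HSPCA (-0.0059 to 0.041) and HSPE1 (-0.0195 to 0.0236) in LT and for CALR (-0.035 to 0.0054), HSPE1 (-0.0054 to 0.048) and STIP1 (-0.0205 to 0.028) in ST. In LT the 1 chaperone called with stress became 0 with control feature scaling, without scaling and at an adjusted p under 0.05, and 2 with scan day as a block or probes of a gene averaged (DNAJB6 and HSPA1L). In ST the 2 called became 1 (DNAJB1) with control feature scaling, no scaling, normexp with quantile normalisation, no filter, slide as a block and the 0.05 threshold. DNAJB1 in ST was called under all 12 alternatives (adjusted p 0.000968 to 0.0830) and HSF4 under 2 of 12 (adjusted p 0.0902 to 0.9999), and HSF4 was lost without any 1 of cows 1, 2, 5, 6, 7, 10, 11, 12, 13, 15, 18, 20, 21, 23, 27, 28, 29, 30, 31 or 32. Leaving out each cow gave 0 to 2 calls in LT, 1 to 4 in ST (4 without cow 3 or 8), 24 to 28 between muscles and 0 for the other comparisons. Without the slide of 6 stressed cows and 1 limited stress cow, chosen after seeing the data, ST had 2 calls (DNAJB1 and DNAJC18). Between LT and ST the 26 calls became 17 with slide and 15 with scan day as a random block, both added after seeing the data; a fixed slide block could not be fitted, since each slide holds 1 muscle. The 25 genes that agreed between muscles became 2 with control feature scaling and 15 without cow 29. The causes were not tested.

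With the cow as replicate block, which pairs LT and ST of the same animal, the chaperones called were 2 in LT (DNAJB6 and HSPA1L), 1 in ST (DNAJB1) and 33 between LT and ST. With the cow block and slide together they were 3 in LT (DNAJB1, DNAJB6 and DNAJC7) and 2 in ST. The muscle by stress interaction stayed at 0 under both.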

Other observations

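Cow 29 carried single chaperone values far from the other cows in both muscles. HSF2 stood at 1.12 log2 in LT and 0.68 in ST, where the next cow had -0.03 and -0.11. CCT2 stood at 1.58 and 1.61 against 0.97 and 0.98, DNAJB9 in ST at 0.31 against -0.65, and HSPA1A in ST at 4.11 against 3.70. For HSPH1 the same cow was highest in both muscles (1.41 and 0.86), and cow 32, a limited stress cow on the EP diet, was lowest in both (-1.41 and -1.70). The arrays of cow 29 were not dim: 76.7% of spots in LT and 76.4% in ST were well above background.

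DNAJC4 in LT stood at 1.71 in the limited stress cow 2, where the next highest cow had -1.87 and the limited stress median was -2.50.

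The spread between cows was larger in stress than in limited stress for 36 of 49 chaperones in LT (73.5%, against 71.2% of all probes) and 31 in ST (63.3%, against 65.6%). The SD was more than 1.5 times as large for 19 in LT (38.8%, against 24.2% of all probes) and 12 in ST (24.5%, against 18.9%). Cow 29 is among the stressed cows, and no test was made of these shares.

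STCH, a microsomal HSP70 relative outside the name rule, was lower in LT than in ST by 0.37 log2 (-0.37, SE 0.0774, adjusted p = 6.5e-05) and differed with stress by 0.31 in LT (adjusted p = 0.168) and 0.10 in ST.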
